A study of Mus musculus with 9 samples.

Results

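The genes described here are 10 regulators of the step at which a stimulated T cell leaves G1 and starts to copy its DNA. They were chosen by name as cyclins, cyclin-dependent kinases (CDKs) and CDK inhibitors. They make up 10 of the 55536 gene identifiers in the count table. Of the 10, 4 act at G1 entry (Ccnd2, Ccnd3, Cdk4 and Cdk6), 4 act from the G1 to S step through S phase (Ccne1, Ccne2, Ccna2 and Cdk2) and 2 are inhibitors (Cdkn1a and Cdkn1b). D-type cyclins are made when antigen and growth factor signals arrive, and they bind and activate CDK4 and CDK6. These kinases start to phosphorylate the retinoblastoma protein RB, which frees E2F transcription factors to drive the genes of E and A cyclins and of DNA replication. Cyclin E and then cyclin A activate CDK2, while the inhibitors p21 (Cdkn1a) and p27 (Cdkn1b) bind cyclin and CDK complexes and hold CDK2 in check. Resting T cells hold much p27, which is lost after stimulation through CD28 and IL-2.

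Messenger RNA was sequenced in 9 cultures of CD4+ T cells from the spleens of wild-type male mice aged 6 to 12 weeks. All 9 cultures were activated for 18 h with anti-CD3 and anti-CD28 beads, a stand-in for antigen and costimulation, in the presence of 5 ng/mL murine IL-2. To these, 3 cultures also received exosomes, small secreted vesicles, of ApoE-deficient bone marrow-derived macrophages (BMDM), a group called EKO_exo here. A further 3 received exosomes of wild-type BMDM (WT_exo), and 3 received PBS without exosomes (PBS), the exosome dose being 2e+09 particles/mL in both exosome groups. The T cells themselves were wild type in all 3 groups, so ApoE was absent only in the donors of the EKO_exo vesicles. No unstimulated cells are among the 9 cultures, and every difference below lies within activated cells at a single time.

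Library totals were 25792975 to 30221565 counts in EKO_exo, 29138950 to 32971791 in WT_exo and 28412418 to 30464334 in PBS. Genes with at least 1 count numbered 19038 to 19518 in EKO_exo, below the 19989 to 20568 of WT_exo and the 20120 to 20373 of PBS. Each EKO_exo library stood apart from the other 8 on 1 of the first 3 principal components: replicate 3 on the component with 18.8% of the variance, replicate 1 on that with 15.7% and replicate 2 on that with 13.4%. The component with 13.4% also set PBS (18.2 to 25.3) apart from WT_exo (-12.9 to -10.9), with EKO_exo replicate 2 at -36.4. The markers matched the label of T cells: all 8 T cell markers were measured, with a summed level of 3443 to 3511 CPM (counts scaled to the library's total) in EKO_exo, 3287 to 3397 in WT_exo and 3275 to 3362 in PBS. The 4 CD8 T cell markers summed to 33.8 to 36.5 CPM in EKO_exo, 30.1 to 34.5 in WT_exo and 28.9 to 32.2 in PBS. Most of that sum was Eomes, with means of 23.8 CPM in EKO_exo, 21.6 in WT_exo and 17.5 in PBS. The coreceptor gene Cd8b1 went the other way, with means of 9.52, 8.58 and 11.1 CPM in the same groups. Cd8a and Gzmk were scarce, and the mean of each was lower in EKO_exo than in PBS. The 8 macrophage and monocyte markers summed to 24.5 to 29.6 CPM in EKO_exo, 22.6 to 29.9 in WT_exo and 19.2 to 29.8 in PBS, with Adgre1, Fcgr1 and Mrc1 at or near 0. The 7 B cell markers summed to 478 to 489 CPM in EKO_exo, 425 to 472 in WT_exo and 423 to 454 in PBS. Nearly all of that was Ighm. Dendritic, NK and neutrophil markers each summed to at most 12.9 CPM, and 3 of 4 erythroid markers were at 0 in every library.

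The G1 to S genes Ccne1, Ccne2, Ccna2 and Cdk2 were lower with exosomes of either kind, and among the G1 entry genes Ccnd2 was higher while Ccnd3 and Cdk4 were lower. Cdk6 and the inhibitors did not pass the test in any comparison. Relative to PBS, Ccna2 fell by 27.6% in EKO_exo and fell by 36.1% in WT_exo, the furthest of the 10 in each, while Ccnd2 rose by 8.81% in EKO_exo and 9.24% in WT_exo. None of the 10 genes passed the test between EKO_exo and WT_exo. In RNA from whole cultures, fewer cells in S phase and less RNA per cell cannot be told apart.

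The promoters of Cdk4 and Cdk2 are shown because both genes fell with exosomes and their promoters hold words of the factors discussed here, MYC (E-box) and E2F. Whether either factor had a part in these falls was not tested. RefSeq promoter windows of GRCm38.p6, of 300 bases with 250 of them before the start, matched 7 of the 10 genes: Ccnd3, Cdk4, Cdk6, Ccne1, Cdk2, Cdkn1a and Cdkn1b. Ccnd3 and Cdkn1a have 2 windows each, and Ccnd2, Ccne2 and Ccna2 had no entry. The Cdk4 sequence covers chr10:127063285-127063534 on the plus strand, the 250 bases before the start, with each E-box CACGTG in capitals. The Cdk2 sequence is 30 bases at chr10:128705173-128705202, read on the minus strand as the gene is, with an E2F word in capitals (GCGGGAAA, which is TTTCCCGC on the other strand).
Cdk4 promoter: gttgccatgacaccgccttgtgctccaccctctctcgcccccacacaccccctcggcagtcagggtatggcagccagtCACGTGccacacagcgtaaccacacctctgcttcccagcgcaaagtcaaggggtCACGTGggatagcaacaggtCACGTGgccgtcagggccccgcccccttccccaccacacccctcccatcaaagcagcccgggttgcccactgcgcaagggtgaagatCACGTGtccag
Cdk2 promoter: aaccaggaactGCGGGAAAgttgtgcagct

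The Cdk4 window held 4 E-boxes, beginning at positions -172, -118, -98 and -11 from the start site. Of 32851 mouse promoter windows 7.15% held at least 1 E-box and 0.0244% held 4 or more. The Cdk6 window held 1 E-box, at -220. The E2F word of Cdk2 spanned -140 to -133, and no other window of the 7 genes held any of the 4 E2F words searched on both strands (TTTCCCGC, TTTCGCGC, TTTGCCGC and TTTGGCGC), which are found in 2.265% of all windows. A FoxO word, TGTTTAC, began at -243 from 1 of the Ccnd3 starts (3.65% of all windows). The cell cycle homology region words TTTGAA and TTCGAA (19.23%) and the STAT word TTCNNNGAA (8.298%) were in none of the 7. These are matches of letters, no 2 of which overlap, and not evidence of binding.

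Ccnd2 encodes cyclin D2, a D-type cyclin that T cells make early after stimulation (ENSMUSG00000000184, chromosome 6, 127125162 to 127152193, minus strand). It stood at 1651, 1799 and 1761 CPM in EKO_exo replicates 1, 2 and 3, at 1733, 1769 and 1731 CPM in WT_exo and at 1639, 1603 and 1548 CPM in PBS. All 6 exosome libraries lay above the 3 PBS libraries, with EKO_exo replicate 1 only just above PBS replicate 1. The means were 1737 ± 76.9 CPM in EKO_exo, 1744 ± 21.2 in WT_exo and 1597 ± 46.2 in PBS (SD, n = 3 each). The log2 fold change against PBS was 0.12 ± 0.028 (SE) in EKO_exo, with an adjusted p of 0.00838, and 0.13 ± 0.028 in WT_exo, with an adjusted p of 0.0052 (edgeR quasi-likelihood test, Benjamini-Hochberg over 14684 genes). Ccnd2 was the only 1 of the 10 genes to pass the threshold of 0.05 as higher, in either comparison. This call rested on single libraries: in EKO_exo the adjusted p was 0.0755 without EKO_exo replicate 2 and 0.0677 without PBS replicate 3, and in WT_exo it was 0.0508 without WT_exo replicate 2.

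Ccnd3, encoding cyclin D3, the other D-type cyclin abundant in lymphocytes (ENSMUSG00000034165, chromosome 17, 47505051 to 47599691, plus strand), went the other way from Ccnd2. Its level was 217, 223 and 237 CPM in EKO_exo, 219.7, 221 and 222 CPM in WT_exo and 253, 257 and 253 CPM in PBS. Every exosome library lay below every PBS library. Against PBS it fell by 0.17 ± 0.039 on the log2 scale in EKO_exo (adjusted p = 0.00694) and by 0.20 ± 0.039 in WT_exo (adjusted p = 0.00116, edgeR quasi-likelihood in both). Without PBS replicate 2 the adjusted p in EKO_exo was 0.0509. An annotated processed pseudogene, Ccnd3-ps on chromosome 4, could share reads with Ccnd3. It held 2 to 20 counts per library, and how reads that fit both were counted is not given in the sources.

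Cdk4 encodes a kinase partner of the D cyclins (ENSMUSG00000006728, chromosome 10, 127063534 to 127067920, plus strand). Its levels were 304.9, 305.3 and 319 CPM in EKO_exo, 294, 309 and 316 CPM in WT_exo and 343, 354 and 333 CPM in PBS. The exosome groups lay below the PBS range without overlap. The fall against PBS was modest in EKO_exo, at -0.15 ± 0.037 log2 (adjusted p = 0.0139), and in WT_exo, at -0.17 ± 0.037 (adjusted p = 0.00582, edgeR quasi-likelihood). In EKO_exo the call was lost without PBS replicate 1 (adjusted p = 0.0508) or PBS replicate 2 (0.124), and in WT_exo without WT_exo replicate 1 (0.0755) or PBS replicate 2 (0.0722).

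Cdk6, the other kinase partner of the D cyclins (ENSMUSG00000040274, chromosome 5, 3341485 to 3531008, plus strand), did not pass the test. It had 399.7, 377 and 370.0 CPM in EKO_exo, 362, 378 and 369 CPM in WT_exo and 381, 382 and 405 CPM in PBS. EKO_exo overlapped PBS, and WT_exo lay just below PBS. The log2 fold change against PBS was -0.03 ± 0.036 in EKO_exo (95% interval -0.10 to 0.05, adjusted p = 0.786) and -0.08 ± 0.036 in WT_exo (-0.15 to -0.0021, adjusted p = 0.297, edgeR quasi-likelihood).

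Ccne1 encodes cyclin E1, which activates CDK2 at the G1 to S step (ENSMUSG00000002068, chromosome 7, 38097984 to 38107534, minus strand). Its levels were 47.5, 46.4 and 53.2 CPM in EKO_exo, 44.4, 53.8 and 45.5 CPM in WT_exo and 67.5, 66.3 and 64.4 CPM in PBS. The lowest PBS library was above the highest exosome library by more than 10 CPM, and the exosome groups overlapped each other. Cyclin E1 mRNA averaged 49.0 ± 3.65 CPM in EKO_exo, 47.9 ± 5.12 in WT_exo and 66.1 ± 1.58 in PBS (SD, n = 3 each). It fell by 0.43 ± 0.075 log2 in EKO_exo (adjusted p = 0.000527) and by 0.46 ± 0.075 in WT_exo (adjusted p = 0.000181, edgeR quasi-likelihood), and both calls held when any 1 library was left out.

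Ccne2 encodes cyclin E2, the second E-type cyclin (ENSMUSG00000028212, chromosome 4, 11191351 to 11204779, plus strand). It stood at 31.2, 29.2 and 31.8 CPM in EKO_exo, 27.2, 28.8 and 27.2 CPM in WT_exo and 39.9, 44.1 and 35.1 CPM in PBS. Both exosome groups lay below the PBS range, and PBS had the widest spread. Against PBS the log2 fold change was -0.37 ± 0.088 in EKO_exo (adjusted p = 0.0114) and -0.52 ± 0.088 in WT_exo (adjusted p = 0.000408, edgeR quasi-likelihood). For EKO_exo, leaving out EKO_exo 2 (adjusted p = 0.0518), PBS 1 (0.0525) or PBS 2 (0.136) ended the call.

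Ccna2, encoding cyclin A2, the partner of CDK2 in S phase and of CDK1 later (ENSMUSG00000027715, chromosome 3, 36564865 to 36572150, minus strand), had the smallest adjusted p of the 10 in both comparisons with PBS. It was measured at 62.1, 70.5 and 71.6 CPM in EKO_exo, at 59.0, 63.7 and 57.6 CPM in WT_exo and at 96.4, 99.3 and 86.4 CPM in PBS. All 6 exosome libraries lay below the PBS range, and EKO_exo replicate 1 lay within the range of WT_exo. Means were 68.1 ± 5.24 CPM in EKO_exo, 60.1 ± 3.19 in WT_exo and 94.0 ± 6.74 in PBS (SD, n = 3 each). The log2 fold change against PBS was -0.47 ± 0.066 in EKO_exo (adjusted p = 5.4e-05) and -0.65 ± 0.067 in WT_exo (adjusted p = 2.62e-07, edgeR quasi-likelihood). As for Ccne1, the calls held when any 1 library was left out.

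Cdk2 encodes the kinase that cyclins E and A activate (ENSMUSG00000025358, chromosome 10, 128697939 to 128705031, minus strand). Its levels were 115, 125 and 123 CPM in EKO_exo, 112, 125 and 115 CPM in WT_exo and 142, 133 and 141 CPM in PBS. Both exosome groups were below PBS in all libraries, by less than for the cyclins it binds. It fell by 0.19 ± 0.051 log2 in EKO_exo (adjusted p = 0.0227) and by 0.24 ± 0.051 in WT_exo (adjusted p = 0.00365, edgeR quasi-likelihood). In EKO_exo the adjusted p was 0.110 without EKO_exo 1, 0.118 without PBS 1 and 0.0782 without PBS 3, and in WT_exo it was 0.0501 without WT_exo 1, each past the threshold.

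Cdkn1a encodes p21, a CDK inhibitor and a target of p53 (ENSMUSG00000023067, chromosome 17, 29090976 to 29100727, plus strand). It had 119, 117 and 119 CPM in EKO_exo, 121, 112 and 110.0 CPM in WT_exo and 108, 116 and 114 CPM in PBS. EKO_exo lay just above PBS, and WT_exo overlapped it. The log2 fold change against PBS was 0.07 ± 0.050 in EKO_exo (95% interval -0.03 to 0.18, adjusted p = 0.511) and 0.02 ± 0.050 in WT_exo (-0.08 to 0.12, adjusted p = 0.905, edgeR quasi-likelihood).

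Cdkn1b encodes p27, the inhibitor of resting T cells, which FoxO factors induce (ENSMUSG00000003031, chromosome 6, 134920401 to 134925513, plus strand). Its levels were 129.8, 110.1 and 118 CPM in EKO_exo, 109, 113 and 111 CPM in WT_exo and 106, 109.7 and 107 CPM in PBS. EKO_exo was spread more widely than either other group, with replicate 1 highest and replicate 2 barely above the highest PBS library. In EKO_exo the log2 fold change against PBS was 0.15 ± 0.053 (95% interval 0.04 to 0.26), with an adjusted p of 0.119 by edgeR, so it was not called. Over the 9 fits that each left out 1 library it ran from 0.08 to 0.20, with edgeR adjusted p of 0.0352 to 0.519. Only 1 of these fits, that without EKO_exo replicate 2, gave a call (0.20, adjusted p = 0.0352). In WT_exo it was 0.04 ± 0.053 (-0.07 to 0.15, edgeR adjusted p = 0.808).

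**Figure D1:**
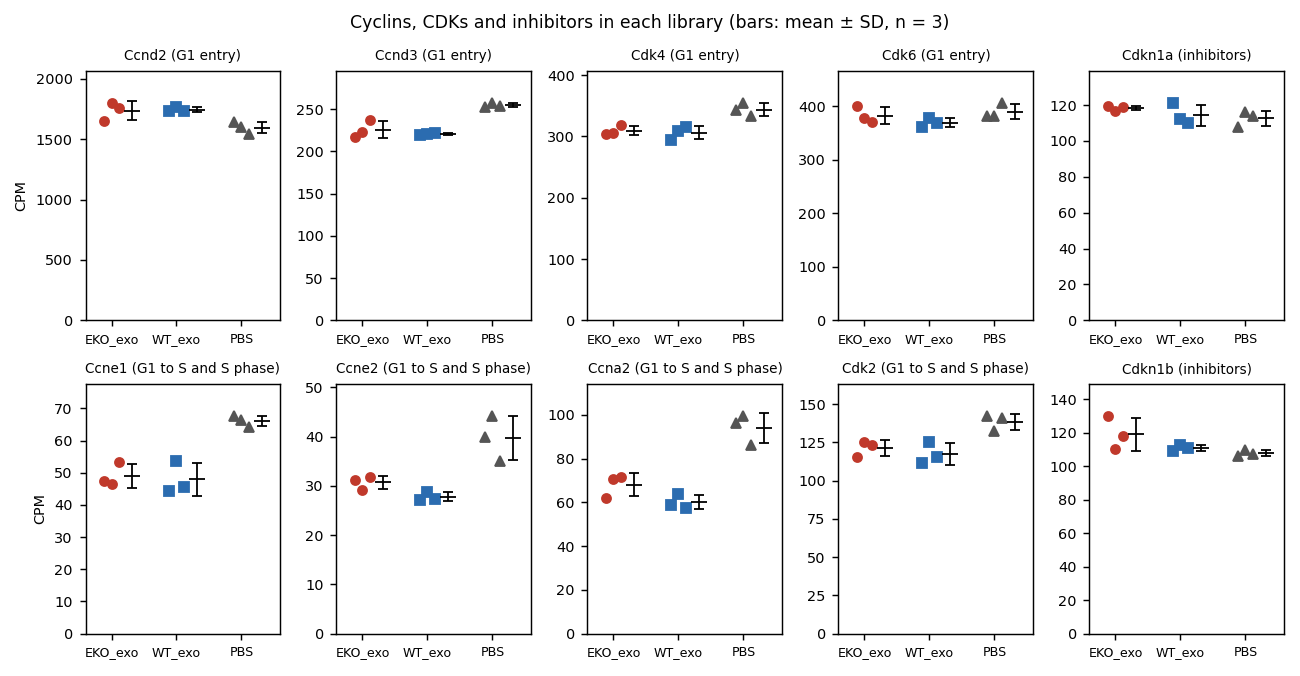
CPM of the 10 genes in each library of EKO_exo, WT_exo and PBS (points), with the mean and SD of each group (bars, n = 3), every y axis starting at 0. In the panels of Ccne1, Ccne2, Ccna2 and Cdk2 the exosome libraries sit below all PBS libraries, in that of Ccnd2 they sit above them, and in those of Cdk6, Cdkn1a and Cdkn1b the groups lie close together.

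Against PBS, 1 of the 10 genes was called higher and 6 lower in EKO_exo, where 2.21% of all 14684 genes tested were called higher and 2.87% lower. In WT_exo 1 was called higher and 6 lower, where 1.83% of all genes were called higher and 3.14% lower. The EKO_exo count of 7 called was 4 without PBS replicate 1 or PBS replicate 2. Both comparisons use the same 3 PBS libraries. By role, the 4 G1 to S genes were all called lower in each, with a median log2 fold change of -0.40 in EKO_exo and -0.49 in WT_exo. The 4 G1 entry genes had 1 higher, 2 lower and 1 not called in each, with medians of -0.09 and -0.12. For the 2 inhibitors, neither called, the medians were 0.11 and 0.03. The median over all genes tested was 3.78e-05 in EKO_exo and 0.0031 in WT_exo.

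Because the EKO_exo libraries stood apart from the rest, the comparison with PBS was also made without replicates 1 and 3, a choice made after the data were seen. The lone remaining library was then assumed to vary like the other groups. In that fit Ccnd2 (0.17 log2, adjusted p = 0.00235), Ccnd3 (-0.19, 0.0436), Ccne1 (-0.51, 0.00472) and Ccna2 (-0.42, 0.0075) were called by edgeR. Cdk4 (-0.17, adjusted p = 0.0811), Ccne2 (-0.44, 0.0704) and Cdk2 (-0.15, 0.383) were not, and Cdkn1b stood at 0.03 (adjusted p = 0.918). Among markers, Cd3e rose by 0.12 log2 (adjusted p = 0.0361), Cd5 by 0.11 (0.0489), Ighm by 0.16 (0.00795), Eomes by 0.44 (0.017) and Csf1r by 1.38 (0.0476) in EKO_exo against PBS (edgeR). Csf1r was scarce, at 2.28 CPM in EKO_exo and 0.87 in PBS. Other markers of the same lists pointed down without a call. Log2 fold changes were negative for 3 of 4 CD8 T cell and 3 of 7 B cell markers. The same held for 2 of 4 macrophage and monocyte markers tested and 1 of 8 T cell markers. In WT_exo against PBS only S100a9 was called, with no count in any WT_exo library, and it was lower. Each of these marker calls was lost when some single library was left out, and their part in the values of the 10 genes was not tested.

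Between EKO_exo and WT_exo, where the vesicle donors differ in ApoE, 0 of the 10 genes were called by edgeR, DESeq2 or limma-voom. Over all genes edgeR called 0.0272% higher and 0.00681% lower in that comparison. At an unadjusted p under 0.05 edgeR counted 571 of all 14684 genes tested as higher and 468 as lower. Of the 10 it counted 1, Ccna2, which was higher in EKO_exo by 0.18 ± 0.067 log2 (95% interval 0.04 to 0.32), with an adjusted p of 0.583. Ccne2 was at 0.15 ± 0.089 (-0.04 to 0.33, adjusted p = 0.784). For Cdkn1b it was 0.10 ± 0.053 (-0.0044 to 0.21, adjusted p = 0.72). Within the same edgeR comparison Cdk6 stood at 0.05 (-0.03 to 0.12), Cdk2 at 0.05 (-0.06 to 0.15), Cdkn1a at 0.05 (-0.05 to 0.15) and Ccne1 at 0.04 (-0.12 to 0.19). Ccnd3 stood at 0.03 (-0.05 to 0.11), Cdk4 at 0.01 (-0.06 to 0.09) and Ccnd2 at -0.01 (-0.06 to 0.05). As folds of EKO_exo over WT_exo the intervals ran from 0.957 to 1.04 for Ccnd2, from 0.968 to 1.08 for Ccnd3 and from 0.959 to 1.06 for Cdk4. Those of Ccna2 (1.03 to 1.248) and Ccne2 (0.9755 to 1.26) reached higher.

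**Figure D2:**
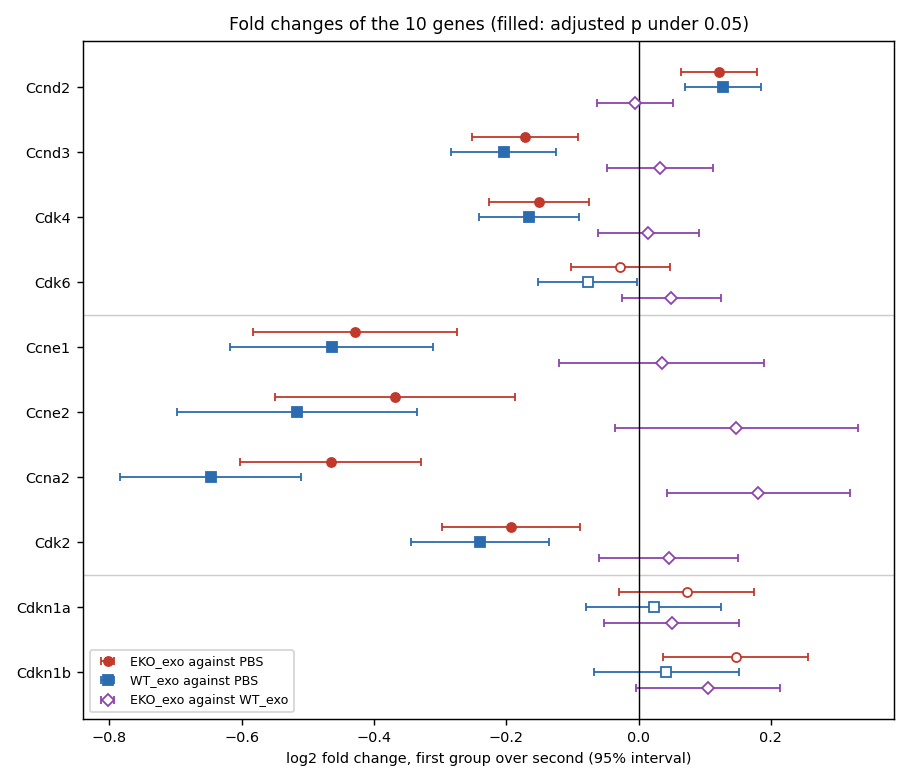
log2 fold changes of the 10 genes with 95% intervals (x axis) for EKO_exo against PBS (circles), WT_exo against PBS (squares) and EKO_exo against WT_exo (diamonds), filled where the adjusted p was under 0.05. Ccne1, Ccne2, Ccna2 and Cdk2 lie left of 0 with filled symbols against PBS, Ccnd2 lies to the right, and all diamonds are open.

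Relative to exon length the 10 genes differed widely in level. Ccnd2 stood at 185 ± 8.17 CPM per kb of exon in EKO_exo, 185 ± 2.25 in WT_exo and 169.7 ± 4.91 in PBS, and Cdk4 followed at 95.3 ± 2.39, 94.3 ± 3.47 and 106 ± 3.25. Ccne2 was lowest in every group, at 8.79 ± 0.387, 7.94 ± 0.258 and 11.4 ± 1.28 CPM per kb in EKO_exo, WT_exo and PBS. The inhibitors Cdkn1a (33.3, 32.2 and 31.7 CPM per kb) and Cdkn1b (26.2, 24.4 and 23.7) were in the middle, with Ccnd3 (25.7, 25.2 and 29.0) and Cdk6 (27.3, 26.4 and 27.8). In EKO_exo Cdkn1b lay within its own SD of 2.17 from its neighbours Cdk6 and Ccnd3. Cdk6 and Ccnd3 differed from each other by more than either of their SDs, 1.11 and 1.20. Cdk2 at 19.5 ± 0.832 and Ccne1 at 18.4 ± 1.37 differed by less than the SD of Ccne1. In PBS Ccna2, at 23.0 ± 1.65, lay within its own SD from its neighbours Cdkn1b and Cdk2. Cdkn1b, at 23.7 ± 0.379, was above Cdk2, at 22.3 ± 0.841, by more than either SD. Cyclin A2 was at 16.7 ± 1.28 CPM per kb in EKO_exo and 14.7 ± 0.782 in WT_exo, below Cdk2 in both exosome groups and beside it in PBS. Exon lengths are unions over annotated transcripts, so these levels depend on which transcripts the cells use.

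**Figure D3:**
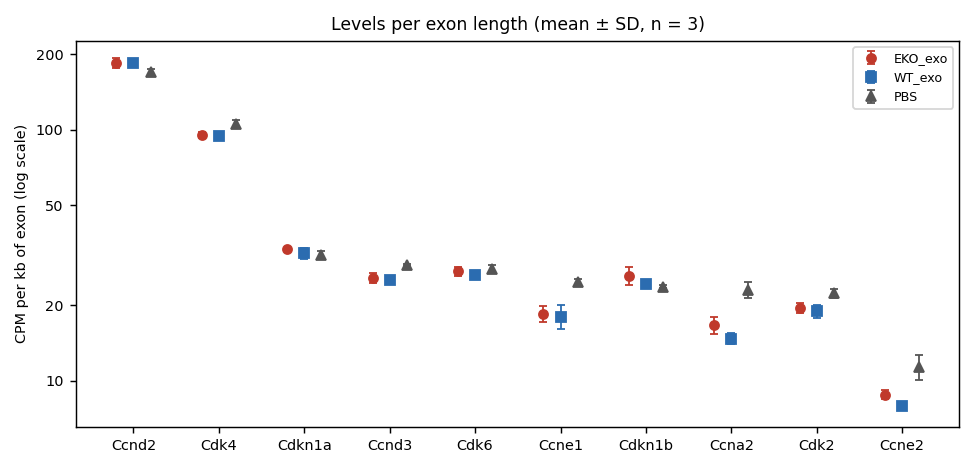
Mean CPM per kb of exon with SD (log y axis, n = 3) of the 10 genes in EKO_exo, WT_exo and PBS, in order of level. Ccnd2 is highest, at 185 in EKO_exo, 185 in WT_exo and 169.7 in PBS, Ccne2 is lowest, at 8.79, 7.94 and 11.4 in the same groups, and the E and A cyclins are lower in both exosome groups than in PBS.

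Ratios of counts within a library do not depend on library size and show the shift between the cyclins. The count of Ccne1 per count of Ccnd2 was 0.0288, 0.0258 and 0.0302 in EKO_exo, 0.0256, 0.0304 and 0.0263 in WT_exo and 0.0412, 0.0414 and 0.0416 in PBS. For Ccna2 over Ccnd2 the group means were 0.0392 ± 0.00155, 0.0344 ± 0.00141 and 0.0589 ± 0.00305, and for Ccne2 over Ccnd2 they were 0.0177 ± 0.00136, 0.0159 ± 0.000322 and 0.0248 ± 0.00245 in EKO_exo, WT_exo and PBS (SD, n = 3 each). All 3 ratios were lower in every exosome library than in every PBS library. Within the D cyclins, Ccnd2 over Ccnd3 was 7.70 ± 0.336 in EKO_exo, 7.90 ± 0.101 in WT_exo and 6.28 ± 0.196 in PBS. For inhibitor and target, Cdkn1b over Cdk2 was 0.988 ± 0.125 in EKO_exo, 0.947 ± 0.0406 in WT_exo and 0.779 ± 0.0427 in PBS, and Cdkn1a over Ccna2 was 1.75 ± 0.153, 1.91 ± 0.146 and 1.20 ± 0.106. These 2 ratios were higher with exosomes in all libraries, and their denominators were the genes that fell. The ratios are given without a test, since they restate the levels above.

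**Figure D4:**
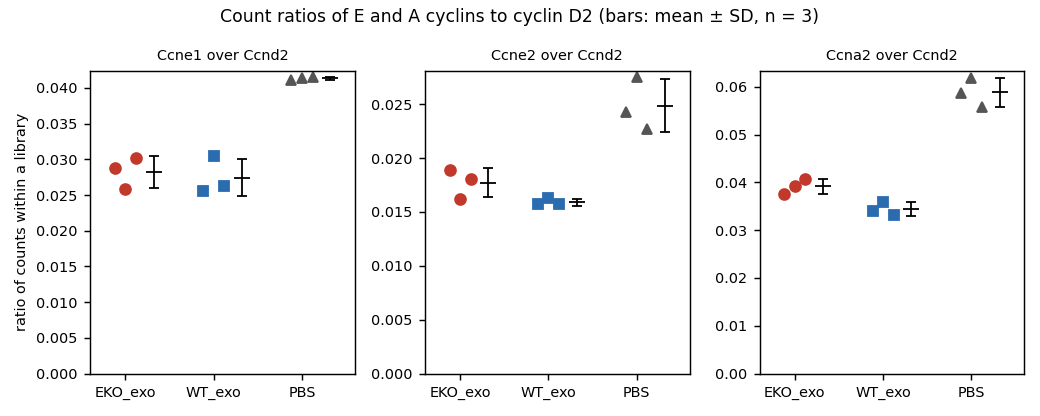
Counts of Ccne1, Ccne2 and Ccna2 divided by counts of Ccnd2 within each library (points) of EKO_exo, WT_exo and PBS, with group mean and SD (bars, n = 3) and y axes from 0. In each panel the 6 exosome libraries lie below the 3 PBS libraries.

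Exons on the opposite strand overlap those of 8 of the 10 genes, all but Ccne1 and Cdkn1b, and without a stated strand setting in counting, reads of such partners cannot be told apart. The partners with sizeable levels were Ints8 beside Ccne2 (mean level 187% that of Ccne2), Exosc9 beside Ccna2 (70.7%), Bysl beside Ccnd3 (47.2%) and Tspan31 beside Cdk4 (12.4%), and the remaining 5 were under 1%. Of the 9 partners 8 were tested, and edgeR called 0 of them in any comparison. Over all genes tested, 2.21% were called higher and 2.87% lower in EKO_exo against PBS. In WT_exo against PBS the shares were 1.83% and 3.14%, and between the exosome groups 0.0272% and 0.00681%. With shares this low, a count of 0 in 8 genes says little about the partners. The Ints8 log2 fold change was -0.02 in EKO_exo and 0.09 in WT_exo against PBS, and that of Exosc9 was 0.04 and 0.0033. Bysl was at -0.0020 in EKO_exo and 0.02 in WT_exo. Tspan31 was at -0.03 in EKO_exo and at -0.16 in WT_exo (edgeR adjusted p = 0.311), where Cdk4, the gene it overlaps, was at -0.17.

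Around the 10 genes, lists of the same pathway were read gene by gene, with the counts and medians in place of a test of the list. For every list below, the shares over all genes tested were 2.21% called higher and 2.87% lower in EKO_exo against PBS. In WT_exo against PBS they were 1.83% higher and 3.14% lower. Among E2F targets of S phase, 13 of 14 fell and 0 rose in EKO_exo against PBS, with a median log2 fold change of -0.23, and 14 of 14 fell in WT_exo, with a median of -0.24. In EKO_exo Rrm2 and Rrm1, the subunits of ribonucleotide reductase, fell by 0.55 ± 0.051 and 0.40 ± 0.042 log2. Tyms, thymidylate synthase, fell by 0.48 ± 0.071 and Mcm7, a subunit of the replicative helicase, by 0.26 ± 0.039, with the 4 adjusted p between 7.69e-08 and 0.000121 (edgeR). Pcna, the sliding clamp of DNA polymerase, was the gene not called in EKO_exo (-0.11 ± 0.044, adjusted p = 0.146). In WT_exo the 4 with the smallest p were Rrm2 (-0.53), Rrm1 (-0.37), Tk1, a thymidine kinase (-0.63), and Cdc6, which loads the helicase (-0.49). The EKO_exo count of 13 lower was 11 to 14 when any 1 library was left out and 7 without EKO_exo replicates 1 and 3.

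Of the 13 genes of RB and E2F factors, 4 fell and 0 rose in EKO_exo against PBS. They were E2f8 and E2f7, atypical E2F repressors (-0.55 ± 0.090, adjusted p = 0.000291, and -0.58 ± 0.125, adjusted p = 0.00453), E2f2, an activator (-0.37 ± 0.073, adjusted p = 0.00196), and Tfdp1, the dimer partner of E2Fs (-0.23 ± 0.043, adjusted p = 0.00125; edgeR for all). The E2f7 call was lost without PBS replicate 2 (adjusted p = 0.0579). In WT_exo 3 fell: E2f8 (-0.60 ± 0.090), E2f2 (-0.47 ± 0.073) and E2f1 (-0.30 ± 0.066, adjusted p = 0.00542). The E2f1 call was lost without WT_exo replicate 1 (adjusted p = 0.0574), WT_exo replicate 3 (0.0609) or PBS replicate 1 (0.0533). The pocket proteins Rb1, Rbl1 and Rbl2 were not called in either, and the list medians were -0.15 in EKO_exo and -0.07 in WT_exo.

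Of 10 other cyclins, CDKs and their binding partners that could be tested, 2 fell and 0 rose in each comparison with PBS. Ccnf, encoding cyclin F, fell by 0.56 ± 0.086 log2 in EKO_exo and 0.54 ± 0.086 in WT_exo. Cdk1, the kinase of mitosis, fell by 0.50 ± 0.085 in EKO_exo (adjusted p = 0.00042) and 0.45 ± 0.084 in WT_exo (adjusted p = 0.00109, edgeR). The third D-type cyclin, Ccnd1, was nearly silent, at 0.795 CPM in EKO_exo, 0.694 in WT_exo and 0.636 in PBS, and Ccna1 had no count in any library. Of 3 other CDK inhibitors with enough counts none was called (edgeR), Cdkn2c standing at -0.30 in EKO_exo and -0.28 in WT_exo, with 1 at an unadjusted p under 0.05 in each. At that unadjusted threshold 1256 of all 14684 genes tested were lower in EKO_exo and 1238 were lower in WT_exo. In the list of CDK phosphorylation and p27 turnover, 0 of 10 were called in EKO_exo by edgeR (3 lower at an unadjusted p under 0.05). In WT_exo 1 fell, Pkmyt1, a kinase that inhibits CDK1 (-0.32 ± 0.071, adjusted p = 0.00535). The Pkmyt1 call was lost without WT_exo replicate 1 (adjusted p = 0.0858) or PBS replicate 2 (0.0576). Skp2, which marks p27 for destruction, was at -0.06 in EKO_exo and -0.28 in WT_exo and was not called.

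Targets of p53, the inducer of Cdkn1a, gave 4 higher and 0 lower of 14 in EKO_exo and 1 higher and 0 lower in WT_exo, with medians of 0.07 and 0.03. Over all genes tested, 2.21% were called higher in EKO_exo and 1.83% in WT_exo. In EKO_exo Zmat3 (0.19 ± 0.045), Trp53inp1 (0.21 ± 0.050), Btg2 (0.21 ± 0.057) and Bax (0.17 ± 0.047) rose, with adjusted p of 0.0116 to 0.0344 (edgeR). Each of these calls was lost on leaving out single libraries: Bax without any 1 of the EKO_exo or PBS libraries or WT_exo replicate 1 (up to 0.122), Btg2 without EKO_exo replicate 1 or any PBS library (up to 0.143), Zmat3 without PBS replicate 1 or 3 (up to 0.0511), and Trp53inp1 without EKO_exo replicate 1 or PBS replicate 1 or 2 (up to 0.128). In WT_exo Trp53inp1 rose by 0.27 ± 0.050 (adjusted p = 0.00107). Mdm2 and Ccng1, classic p53 targets, were at 0.03 and 0.04 in EKO_exo and at -0.04 and 0.08 in WT_exo and were not called.

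FoxO factors, the inducers of Cdkn1b, and their targets gave 3 higher and 0 lower of 9 in EKO_exo and 2 higher and 0 lower in WT_exo. Klf2, a factor of resting T cells, rose by 0.48 ± 0.058 log2 in EKO_exo (adjusted p = 4.21e-06) and 0.33 ± 0.058 in WT_exo (adjusted p = 0.000581). Btg1, an antiproliferative gene, rose by 0.21 ± 0.039 in EKO_exo and 0.25 ± 0.039 in WT_exo. S1pr1, a receptor for exit from lymphoid organs, rose by 0.29 ± 0.069 in EKO_exo (adjusted p = 0.0112), and was at 0.01 in WT_exo. In EKO_exo its adjusted p was 0.0598 when EKO_exo replicate 1 was left out and 0.0943 when PBS replicate 2 was. Set directly against WT_exo, S1pr1 was 74.7 ± 4.36 CPM in EKO_exo and 61.6 ± 5.84 in WT_exo, a log2 difference of 0.28 ± 0.069 with an adjusted p of 0.243 by edgeR. The call was made by edgeR without the filter on low counts (adjusted p = 0.0276) and by DESeq2 (0.021).

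Of 11 genes along MYC, STAT5 and the IL-2 receptor, 4 rose and 1 fell in EKO_exo, and 2 rose and 1 fell in WT_exo. The medians were 0.13 and 0.11. Beside inducers of D cyclins the list holds feedback inhibitors such as Socs1, so these counts are not of inducers alone. Myc, a transcription factor that induces Ccnd2 and Cdk4, rose by 0.14 ± 0.032 log2 in EKO_exo (adjusted p = 0.00891) and 0.12 ± 0.032 in WT_exo (adjusted p = 0.0228, edgeR). Stat5a, which acts below the IL-2 receptor, rose by 0.15 ± 0.036 and 0.18 ± 0.036. Il2ra, the high-affinity subunit of that receptor, fell by 0.10 ± 0.026 in EKO_exo (adjusted p = 0.0219) and by 0.12 ± 0.026 in WT_exo (adjusted p = 0.00365). Il2rg, the shared receptor subunit, rose in EKO_exo by 0.14 ± 0.037 (adjusted p = 0.024) and was at -0.01 in WT_exo, and Socs1, a feedback inhibitor, rose in EKO_exo. Against PBS in EKO_exo, leaving out single libraries ended the calls of Myc (EKO_exo 2 or PBS 3, up to 0.0745), Stat5a (PBS 1 or 2, up to 0.085), Il2ra (EKO_exo 1, PBS 1 or PBS 2, up to 0.135), Il2rg (EKO_exo 3, PBS 1 or PBS 3, up to 0.149) and Socs1 (EKO_exo 2 or 3, PBS 1 or 2, or any WT_exo library, up to 0.213). In WT_exo that of Myc ended without WT_exo 1, WT_exo 2, PBS 1 or PBS 3 (up to 0.152). Il2rg set against WT_exo was 0.15 ± 0.037 higher in EKO_exo, with an adjusted p of 0.265 by edgeR and 0.014 by DESeq2. No other gene of these pathway lists was called between EKO_exo and WT_exo under edgeR, DESeq2 or limma-voom.

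**Figure D5:**
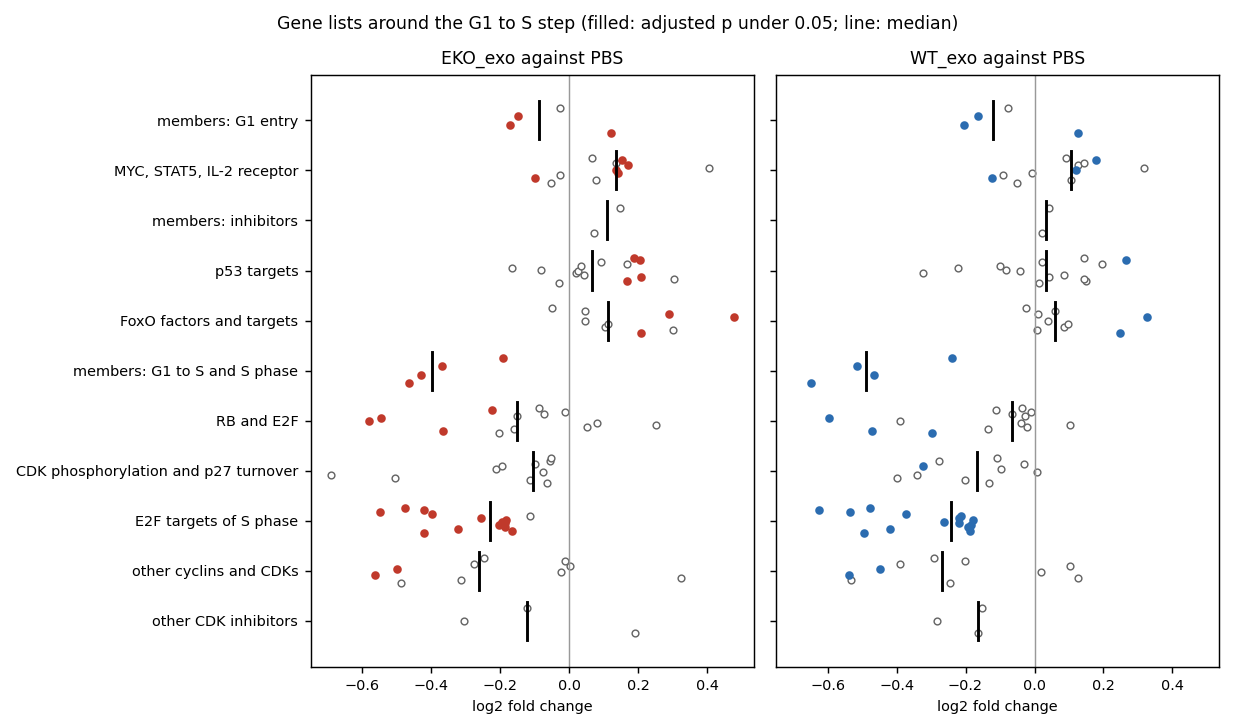
log2 fold changes against PBS (x axis) of the 10 genes by role and of the pathway lists, for EKO_exo (left) and WT_exo (right), with each point a gene, filled where the adjusted p was under 0.05, and each black line the list median. E2F targets of S phase lie left of 0 with medians of -0.23 and -0.24, and the MYC, STAT5 and IL-2 receptor list has medians of 0.13 and 0.11.

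The genes whose log2 CPM followed each of the 10 most closely over the 9 libraries, out of 9563 genes averaging 5 CPM or more, are given as a description, since the libraries fall into the same 3 groups. Ccne1 was closest to E2f8 (Pearson r = 0.988), Tyms (0.984) and Pank1 (0.98), and Ccna2 to Melk (0.984), Asns (0.983) and Tacc3 (0.983). Ccne2 was closest to Galnt6 (0.987), Pkm (0.967) and Kifc1 (0.964), and Cdk2 to Gins2 (0.9747), Hmgb2 (0.962) and Iqgap3 (0.958). Ccnd3 was closest to Mcm2 (0.987), Nedd4 (0.978) and Pole (0.974), and Cdk4 to Clpx (0.986), Kifc1 (0.978) and Slc2a1 (0.976). Ccnd2 was closest to Egr1 (0.982), an immediate early gene, Sys1 (0.971) and Dusp5 (0.957). The genes that were not called had lower best values, Cdk6 with Rnf213 (0.947), Cdkn1a with Sec14l1 (0.966) and Cdkn1b with Bicra (0.961).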

How the data were processed

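The deposited values were whole-number counts per gene, with no normalization by the authors. The submitters' processing notes name STAR 2.7.5c and the build GRCm38; of the counting tool, strand setting and annotation, nothing is given in the sources used here. Per the labels, RNA came from a RNeasy Mini kit and libraries from the Universal Plus mRNA-Seq kit. GENCODE M21 gave symbols for 55450 of 55536 identifiers, and 0 columns of values went unused. The series' design text calls the 3 replicates of a group biological, while no sample label ties them to separate mice; p-values cover the spread among these samples, whichever kind it is.

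In R 4.3.3, edgeR 4.0.16 filtered genes (filterByExpr, minimum count 10, minimum total 15), leaving 14684 that hold at least 99.92% of each library's counts, scaled them by TMM and fitted the 3 groups to all 9 libraries (6 residual degrees of freedom). Genes were called by the quasi-likelihood F test, two-sided, at a Benjamini-Hochberg adjusted p under 0.05 over all genes tested. CPM were computed here on TMM-scaled totals. All 10 genes passed the filter, the lowest count being 754. Scripts were tested on simulated counts. The genes and lists were chosen with earlier results of these data known. By rule the text names all 10 genes, list genes called in any comparison (values for up to 4 per list with the smallest p) and up to 3 most alike genes. Pcna, Ccnd1, Ccna1, Cdkn2c, Skp2, Mdm2, Ccng1, Rb1, Rbl1 and Rbl2 were named beyond it after their values were seen. Alternatives included DESeq2 1.42.0 and limma-voom (limma 3.58.1).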

Additional observations from a re-analysis of the deposited data

How the results depend on the processing

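None of the log2 fold changes of the 10 genes that were called changed sign under any alternative (other scalings, filters, DESeq2, limma-voom, the replicate block, only the groups compared, or leaving out libraries), and the 3 scalings gave all 30 the same direction. Of 180 alternative values per comparison, 165 kept their side of the threshold for EKO_exo against PBS (14 lost and 1 gained a call), 176 for WT_exo against PBS (4 lost) and 180 for EKO_exo against WT_exo. Leaving out 1 library gave 4 to 7 of the 10 genes for EKO_exo against PBS (7 with all libraries) and 375 to 687 over all genes (746 with all; 399 without PBS 1 and 375 without PBS 2). WT_exo against PBS gave 5 to 7 of the 10 (7 with all) and 399 to 870 over all genes (730 with all; 441, 430 and 432 without WT_exo 1, 2 and 3, and 410 and 399 without PBS 1 and 2). EKO_exo against WT_exo gave 0 of the 10 and 0 to 6 over all genes (5 with all; 1 without EKO_exo 2, WT_exo 1 or WT_exo 3, and 0 without WT_exo 2). Pathway genes called were 31, 26 and 0 in the 3 comparisons, and 21 to 30, 24 to 29 and 0 with 1 library left out. Without EKO_exo replicates 1 and 3, chosen after seeing the data, EKO_exo against PBS had 249 genes, 4 of the 10 and 14 pathway genes called, and EKO_exo against WT_exo had 0 genes; the group then holds 1 library. For EKO_exo against WT_exo the count over all genes was 28 without a filter, 9 at a mean of at least 5 CPM, 32 by DESeq2, 5 by limma-voom and 1 with the replicate block, and pathway genes were 1 without a filter and 2 by DESeq2. The causes of these moves were not tested. With the replicate number as a block the counts were 614, 609 and 1 over all genes and 7, 7 and 0 of the 10. Deviations of same-numbered libraries correlated at -0.0203 to 0.0236, so the numbers did not pair them. Each of the 10 genes had at least 754 counts in every library, and groups of 3 libraries limit these comparisons.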
